A study of Mus musculus with 10 samples.

Results

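The 10 genes described here stand for the transcriptional control of the eosinophil lineage: Gata1, Gata2, Zfpm1, Cebpa, Cebpb, Cebpe, Trib1, Spi1, Id2 and Ikzf1. They were taken by gene symbol from the authors' count table, which held 35725 gene rows, and all 10 members had 1 row each. The libraries were 5 of P2ry14-null lung eosinophils and 5 of wild-type (WT) C57BL/6J lung eosinophils, all from male mice. P2ry14 encodes a G protein-coupled receptor that senses extracellular UDP-glucose. Not given in the sources used here were the genetic background and allele of the P2ry14-null strain, the ages of the mice, the gates of the sort and whether each library came from a separate mouse. P-values therefore measured the spread between these libraries, which may in part be technical. Both genotypes went through the same allergic airway model. Mice received 50 µg ovalbumin (OVA) with 20 µg of a protease from Aspergillus oryzae by the oropharyngeal route, on 2 occasions, and 7 days after the second dose they inhaled a 1% OVA aerosol. Eosinophils were sorted from the lungs 16 h after that challenge, so every library came from challenged lung, with no unchallenged mice among the groups.

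Eosinophils arise in bone marrow from myeloid progenitors, and the choice between granulocyte fates depends on which GATA and C/EBP factors are present together and at what dose. GATA1 is required for the lineage and acts on its own gene through a palindromic GATA site. PU.1, the product of Spi1, and C/EBP factors act with it on granule protein genes, while FOG1, the product of Zfpm1, binds GATA factors and in chicken progenitors represses eosinophil fate. C/EBPε drives terminal granulocyte maturation, and TRIB1 directs C/EBPα protein to degradation.

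Libraries held between 67.2 M and 185 M assigned reads. P2ry14 itself averaged 23.2 ± 1.02 counts per 1000000 reads of TMM-scaled library size (CPM) in P2ry14-null libraries and 211 ± 16.0 CPM in WT libraries (SD, n = 5 each), a log2 difference of -3.19 ± 0.06 (SE), and the 2 genotypes did not overlap. The eosinophil surface markers Siglecf and Ccr3 were abundant in both genotypes. Of 15 eosinophil genes, Prg3 was lowest at 4.68 and 6.29 CPM in P2ry14-null and WT libraries, and Alox15 highest at 5049 and 5013 CPM. Siglecf, the surface lectin used to gate mouse eosinophils, averaged 1232 ± 37.7 CPM in P2ry14-null and 1282 ± 63.2 CPM in WT libraries, and Ccr3, the eotaxin receptor, 1428 ± 78.4 CPM in P2ry14-null and 1369 ± 159 CPM in WT libraries. P2ry14-null library 2 stood apart in markers of other cells. The Cebpa difference and the paralog median are given below with and without it.

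None of the 10 lineage factors passed the threshold between P2ry14-null and WT eosinophils. In edgeR's quasi-likelihood test with Benjamini-Hochberg adjustment over 15586 genes, 0 of 10 members had an adjusted p under 0.05, against 0.0385% of all genes tested (0.0128% higher and 0.0257% lower in P2ry14-null), and each member's adjusted p was 0.999. At an unadjusted p under 0.05 there was 1 of 10 members, Gata2, against 4.13% of all genes. DESeq2 also called 0 of 10 members, with 0.134% of the genes it tested called, and with a replicate block 0 of 10 members and 0.319% of genes. In no member did the 5 P2ry14-null libraries all lie on one side of the 5 WT libraries, a pattern met by 0.648% of all genes. The log2 difference (P2ry14-null minus WT) was below 0 in 7 members and above 0 in 3, with a median of -0.038 against 0.0025 over all tested genes, of which 48.8% lay below 0. For 8 of 10 members it was smaller than 0.1 in size. A p above the threshold does not show that the levels were equal, so the 95% interval is given with each member.

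**Figure D1:**
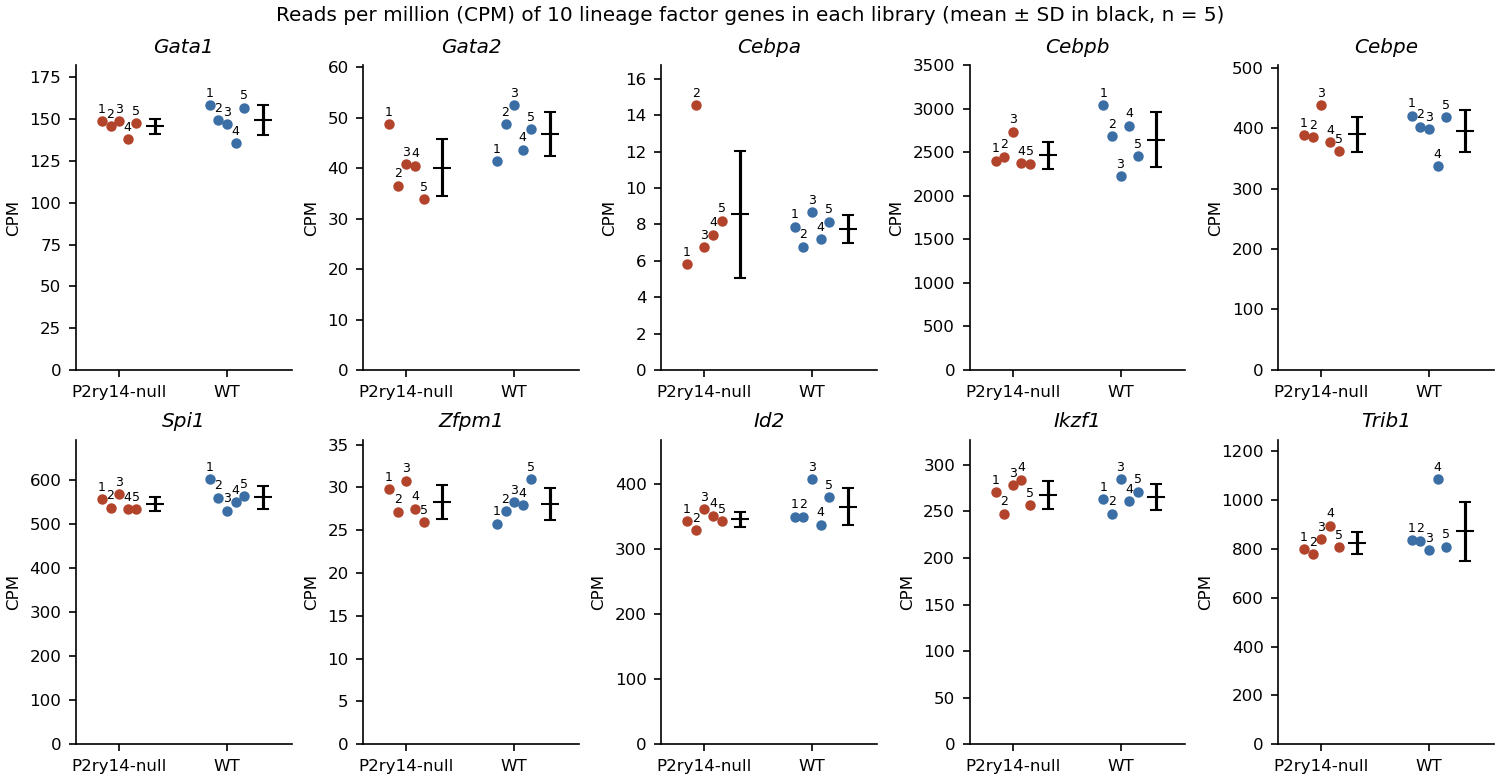
CPM of the 10 lineage factors in each library (points numbered by replicate, a panel for each gene, each axis from 0), with P2ry14-null libraries left of WT libraries and the mean ± SD of each group in black. The groups overlap in every panel, and the isolated point in the Cebpa panel is P2ry14-null library 2 at 14.6 CPM.

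The start regions of both GATA genes are shown because the autoregulation of Gata1 and the switch between GATA factors act through GATA sites, and because Gata2 has alternative starts. The windows are from RefSeq on GRCm38.p6 and run from 250 bases before to 50 bases after a start, 5′ to 3′ on the strand of the gene. Capitals mark matches to the motifs named after them. They lie at chrX:7967861-7968160 on the minus strand (Gata1), chr6:88193641-88193940 on the plus strand (Gata2, upstream start) and chr6:88198414-88198713 on the plus strand (Gata2, downstream start).
Gata1: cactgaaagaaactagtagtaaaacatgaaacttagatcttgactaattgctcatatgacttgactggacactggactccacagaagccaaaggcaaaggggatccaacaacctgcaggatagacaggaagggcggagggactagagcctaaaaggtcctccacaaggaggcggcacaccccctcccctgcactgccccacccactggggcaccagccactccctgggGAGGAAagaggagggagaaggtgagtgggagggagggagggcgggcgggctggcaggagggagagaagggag
Gata2 upstream start: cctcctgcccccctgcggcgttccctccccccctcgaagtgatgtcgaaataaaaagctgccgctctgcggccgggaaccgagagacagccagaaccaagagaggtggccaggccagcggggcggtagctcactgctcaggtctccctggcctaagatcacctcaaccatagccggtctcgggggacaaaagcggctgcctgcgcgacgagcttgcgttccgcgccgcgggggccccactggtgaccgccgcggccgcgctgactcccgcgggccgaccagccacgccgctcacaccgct
Gata2 downstream start: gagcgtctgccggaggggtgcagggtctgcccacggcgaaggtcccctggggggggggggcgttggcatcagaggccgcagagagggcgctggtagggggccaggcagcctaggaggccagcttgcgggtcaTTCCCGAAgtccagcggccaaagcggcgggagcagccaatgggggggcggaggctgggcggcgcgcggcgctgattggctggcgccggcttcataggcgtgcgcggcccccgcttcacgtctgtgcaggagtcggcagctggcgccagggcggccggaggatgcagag
The letters searched on both strands were AGATAA as well as AGATAG and, in the same way, TGATAA as well as TGATAG for GATA factors, then TTNNGNAA for C/EBP factors and finally GAGGAA for PU.1 and other ETS factors. RefSeq windows were matched for 7 of 10 members, 9 windows in all, and those of Cebpe, Spi1 and Trib1 were not used here. None of the 9 windows held a GATA hexamer, which 29.8% of all 32851 windows of 300 bases held. The C/EBP letters, held by 40.7% of all windows, occurred in the downstream Gata2 window 118 bases before the start and in 1 of 2 Ikzf1 windows. The ETS letters, held by 28.3% of all windows, occurred 22 bases before the Gata1 start of this window, at chrX:7967910. That start is internal, as the Gata1 row of the count table reaches upstream to chrX:7976682. These matches describe letters in 300 bases and do not bear on binding. Sites outside the windows, where the palindromic Gata1 site may lie, were not searched. The Gata2 row of the count table spans chr6:88198664-88207032 in mm10, which begins exactly at the downstream start, 4773 bases past the upstream one, so that 440 annotated exon bases of Gata2 lie outside it.

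The GATA group comprised both GATA factors and their cofactor FOG1. Gata1, whose double GATA site must be intact for mice to form eosinophils, stood at 149, 146, 149, 138 and 148 CPM in P2ry14-null libraries 1 to 5, against 158, 149.5, 147, 136 and 157 CPM in WT libraries 1 to 5. Library 4 was lowest in both genotypes, and the WT values spanned the P2ry14-null ones. The means were 146 ± 4.51 CPM in P2ry14-null and 149 ± 9.13 CPM in WT libraries (SD, n = 5 each), with a log2 difference of -0.037 ± 0.049 (SE; 95% interval -0.14 to 0.070). On the linear scale that interval ran from -9.47% to 4.97%. Leaving out 1 library gave from -0.064 (WT library 4) to -0.015 (WT library 1).

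Gata2 is the GATA factor of stem cells, mast cells and basophils, and it also acts early in eosinophil commitment. It stood at 48.7, 36.6, 40.9, 40.5 and 33.9 CPM in P2ry14-null libraries 1 to 5, against 41.4, 48.7, 52.6, 43.7 and 47.8 CPM in WT libraries 1 to 5. P2ry14-null libraries 2 to 5 all lay below every WT library, whereas P2ry14-null library 1 lay above WT libraries 1, 2, 4 and 5. The means were 40.1 ± 5.62 CPM in P2ry14-null and 46.8 ± 4.37 CPM in WT libraries (SD, n = 5 each). The log2 difference was -0.23 ± 0.091 (SE; 95% interval -0.42 to -0.03), a change of -14.5% on the linear scale. Its unadjusted edgeR p of 0.0282 ranked 356th among the 15586 genes, and the adjusted p was 0.999. A two-sided exact permutation test on log2 CPM gave p = 0.0635, where 5 against 5 libraries can reach 0.0079. Leaving out 1 library at a time moved the difference between -0.30, with P2ry14-null library 1 omitted, and -0.17, with library 5 of that genotype omitted, and no such value passed adjustment.

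Mast cells and basophils are the other cells known for Gata2. The summed CPM of that list ran from 24.9 to 41.2 in P2ry14-null and from 41.4 to 59.7 in WT libraries. These sums did not overlap, though narrowly. That pattern was met by 0.648% of single genes tested, which gives no rate for the sum of a list. The 6 of the list's 10 genes that could be tested all lay below 0. Among P2ry14-null libraries, library 1 was highest in Gata2 and library 4 in that sum, and library 5 was lowest in both. Among WT libraries, library 3 was highest in Gata2 and library 4 in that sum, with library 1 lowest in Gata2 and library 5 in the sum. Nearly all of the sum was Hdc, histidine decarboxylase, at 29.3 ± 6.51 CPM in P2ry14-null and 46.0 ± 7.08 CPM in WT libraries. Hdc alone overlapped, at 23.1 to 39.3 CPM in P2ry14-null and 39.2 to 56.7 CPM in WT libraries. Without Hdc the list also overlapped, summing to 0.800 to 1.93 CPM in P2ry14-null and 1.69 to 2.95 CPM in WT libraries. The defining protease genes were near 0, with Cpa3 at 0.351 CPM in P2ry14-null and 0.568 CPM in WT libraries, and Mcpt8 at 0.312 CPM in P2ry14-null and 0.490 CPM in WT libraries. Cpa3 did not overlap, at 0.193 to 0.402 CPM in P2ry14-null and 0.469 to 0.667 CPM in WT libraries. It had 13 to 121 reads per library, an unadjusted edgeR p of 0.0035 and an adjusted p of 0.999. Hdc had an adjusted edgeR p of 0.532, and DESeq2 and edgeR with a replicate block called it. The part of these cells in the Gata2 values was not tested, and in bulk RNA fewer cells of a type cannot be told apart from less RNA per cell.

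**Figure D2:**
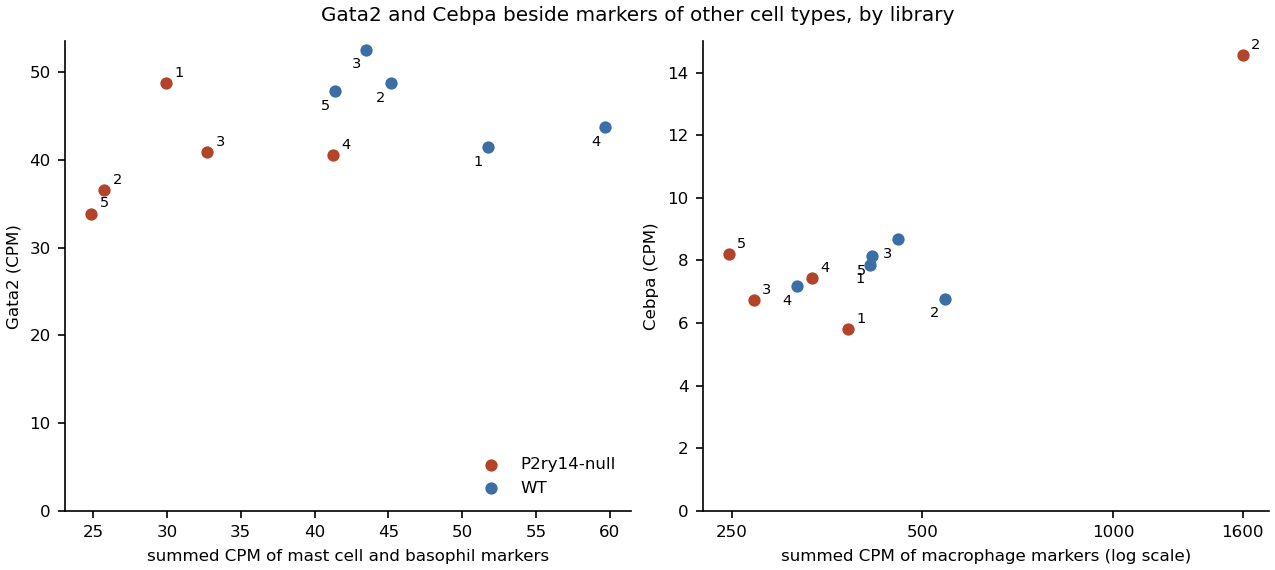
Left, Gata2 CPM against the summed CPM of mast cell and basophil markers. Right, Cebpa CPM against the summed CPM of macrophage markers on a log axis. Each point is a library, numbered by replicate, in P2ry14-null or WT colour. The marker sums of the left panel do not overlap between genotypes (at most 41.2 against at least 41.4 CPM), though Hdc alone does. P2ry14-null library 2 stands alone at 1603 CPM in the right panel.

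Zfpm1, which encodes FOG1, stood at 29.8, 27.2, 30.8, 27.5 and 26.0 CPM in P2ry14-null libraries 1 to 5, against 25.8, 27.3, 28.2, 28.0 and 31.0 CPM in WT libraries 1 to 5. The ranges were nearly the same. The log2 difference of 0.010 ± 0.061 (SE; 95% interval -0.12 to 0.14) had no stable sign, being -0.00016 with no low-count filter. The ratio of Gata1 CPM to Gata2 CPM, a library-by-library measure of the balance of the GATA factors, ran from 3.05 to 4.36 in P2ry14-null and from 2.80 to 3.83 in WT libraries, so the groups overlapped.

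The C/EBP group ran from the scarcest to the most abundant of the 10 members. Cebpa, needed for the step to the granulocyte-macrophage progenitor, stood at 5.81, 14.6, 6.74, 7.43 and 8.20 CPM in P2ry14-null libraries 1 to 5, against 7.87, 6.78, 8.69, 7.17 and 8.15 CPM in WT libraries 1 to 5. P2ry14-null library 2 was far above the other 9 libraries. The log2 difference was 0.15 ± 0.20 (SE; 95% interval -0.28 to 0.58), and without that library it was -0.13 ± 0.11, so its sign rests on 1 library. The reads behind Cebpa numbered 392 to 2245 per library. Of the macrophage markers 8 of 9 were tested, 6 above and 2 below 0. In P2ry14-null library 2 they summed to 1603 CPM, against 247 to 382 CPM in the other 4 P2ry14-null and 317 to 543 CPM in the WT libraries. Without Chil3, which made up most of that sum, they came to 82.3 CPM there, against 11.7 to 18.8 CPM in the other 4 P2ry14-null and 14.6 to 18.7 CPM in the WT libraries. Dendritic cell and class II genes summed to 423 CPM in it, against 74.4 to 119 CPM in the other 4 P2ry14-null and 105 to 143 CPM in the WT libraries. The part of these cells in the Cebpa value was not tested.

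Cebpb, the C/EBP of inflammatory gene induction and of emergency granulopoiesis, stood at 2406, 2452, 2739, 2375 and 2371 CPM in P2ry14-null libraries 1 to 5, against 3045, 2687, 2228, 2809 and 2453 CPM in WT libraries 1 to 5. WT libraries held both the highest and the lowest value. The log2 difference was -0.099 ± 0.079 (SE; 95% interval -0.27 to 0.07), with -0.043 when WT library 1 was left out and -0.15 when WT library 3 was. Cebpb shares 312 exon bases with Tmem189 on the opposite strand, and whether the counting used strand is not given in the sources used here, so reads in those bases cannot be assigned with certainty. Tmem189 had 207430 reads over the 10 libraries, against 3501937 for Cebpb.

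Cebpe, the terminal granulocyte factor, stood at 388, 385, 438, 377 and 362 CPM in P2ry14-null libraries 1 to 5, against 421, 403, 398, 337 and 418 CPM in WT libraries 1 to 5. The lowest value was WT library 4 and the highest P2ry14-null library 3. The log2 difference of -0.019 ± 0.069 (SE; 95% interval -0.17 to 0.13) took either sign when single libraries were left out, from -0.066 (without WT library 4) to 0.0079 (without P2ry14-null library 5).

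Trib1, the pseudokinase whose loss in mice reduces eosinophils, stood at 799, 778, 839, 896 and 806 CPM in P2ry14-null libraries 1 to 5, against 836, 834, 795, 1085 and 809 CPM in WT libraries 1 to 5. Library 4 was highest in both genotypes. The log2 difference was -0.082 ± 0.082 (SE; 95% interval -0.26 to 0.09), and without WT library 4 it was 0.015.

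Spi1, whose product PU.1 sets myeloid against erythroid fate in opposition to GATA1, stood at 556, 537, 568, 533 and 534 CPM in P2ry14-null libraries 1 to 5, against 602, 559.6, 530.4, 550.4 and 564 CPM in WT libraries 1 to 5. Its spread was the smallest of the 10 members in WT libraries, with a coefficient of variation of 4.65%, and 2.88% in P2ry14-null libraries. The log2 difference was -0.040 ± 0.046 (SE; 95% interval -0.14 to 0.06), with -0.060 when WT library 3 was left out and -0.014 when WT library 1 was.

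Id2 and Ikzf1 complete the set. Id2, an inhibitor of E proteins that in human progenitors hastens eosinophil maturation, stood at 344, 329, 362, 351 and 343 CPM in P2ry14-null libraries 1 to 5, against 350.3, 350.0, 408, 338 and 381 CPM in WT libraries 1 to 5. The highest libraries, 3 and 5, were WT, and the other 3 WT libraries fell within the P2ry14-null range. The log2 difference was -0.078 ± 0.056 (SE; 95% interval -0.20 to 0.04), and -0.036 without WT library 3. Ikzf1, encoding the zinc finger protein Ikaros, stood at 271, 248, 278, 284 and 257 CPM in P2ry14-null libraries 1 to 5, against 263, 248, 285, 261 and 271 CPM in WT libraries 1 to 5. The ranges coincided, and the log2 difference was 0.011 ± 0.053 (SE; 95% interval -0.10 to 0.13).

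**Figure D3:**
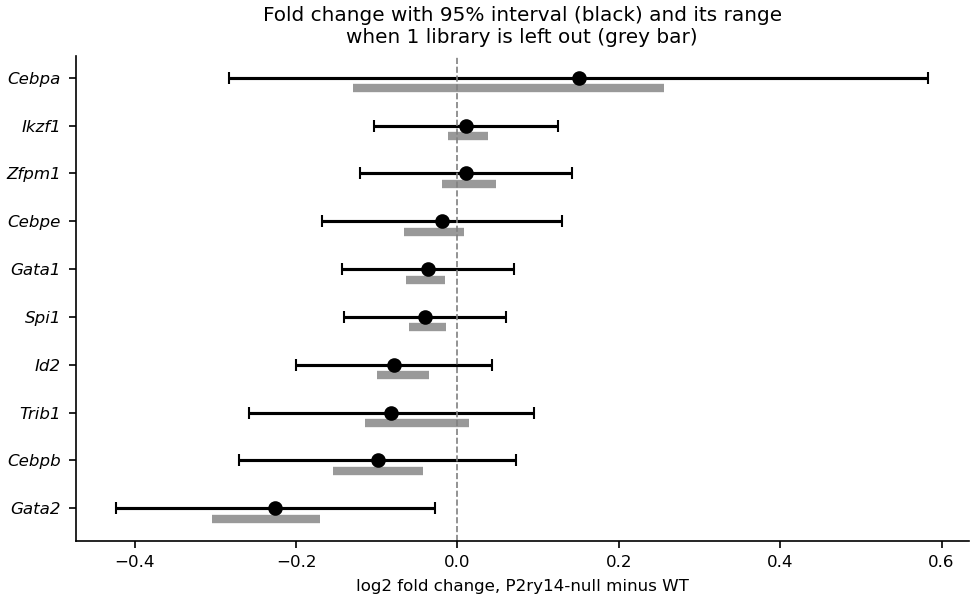
Log2 difference, P2ry14-null minus WT, of each lineage factor (point) with its 95% interval (black line) from edgeR, the range of the difference when 1 library is left out (grey bar), and a dashed line at 0. Gata2 at -0.23 is the member whose interval lies wholly below 0, and Cebpa has the widest interval, -0.28 to 0.58.

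Levels per kilobase of exon differed between the members by far more than they differed between genotypes. Cebpb led at 1641 ± 103 CPM per kilobase (RPKM) in P2ry14-null and 1758 ± 210 RPKM in WT libraries (SD, n = 5 each), and it made up 64.2% of the members' summed RPKM in P2ry14-null and 64.9% in WT libraries. Cebpe followed at 314 ± 23.3 RPKM in P2ry14-null and 319 ± 27.6 RPKM in WT libraries, and Spi1 at 202 ± 5.83 RPKM in P2ry14-null and 208 ± 9.69 RPKM in WT libraries. With this length these genes stood at the top of the order in every library. Id2 averaged 142 ± 4.88 RPKM in P2ry14-null and 149.8 ± 11.7 RPKM in WT libraries, next to Trib1 at 132 ± 7.34 RPKM in P2ry14-null and 139.5 ± 19.3 RPKM in WT libraries. This pair overlapped, with Id2 above Trib1 in 9 of 10 libraries, and it changed places when the longest transcript was used as length. Gata1 averaged 59.8 ± 1.85 RPKM in P2ry14-null and 61.3 ± 3.74 RPKM in WT libraries, and Ikzf1 46.3 ± 2.61 RPKM in P2ry14-null and 46.0 ± 2.36 RPKM in WT libraries. The progenitor factors were lowest. Gata2 averaged 7.43 ± 1.04 RPKM in P2ry14-null and 8.67 ± 0.810 RPKM in WT libraries, Zfpm1 8.06 ± 0.565 RPKM in P2ry14-null and 8.003 ± 0.541 RPKM in WT libraries, and Cebpa 3.24 ± 1.32 RPKM in P2ry14-null and 2.93 ± 0.289 RPKM in WT libraries. Gata2 and Zfpm1 overlapped, Gata2 being above in 6 of 10 libraries, while the neighbouring pairs other than these and Id2 with Trib1 kept their order in all 10. The table's spans leave out 697 of the 2438 exon bases of Id2, 440 of 5398 of Gata2, 304 of 6248 of Trib1, 139 of 2438 of Gata1 and 3 of 1241 of Cebpe. With exon bases inside the span alone as length, a choice made after seeing the data, Id2 averaged 199 RPKM in P2ry14-null and 209.8 RPKM in WT libraries, and Spi1 was above it in 7 of 10 libraries only.

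**Figure D4:**
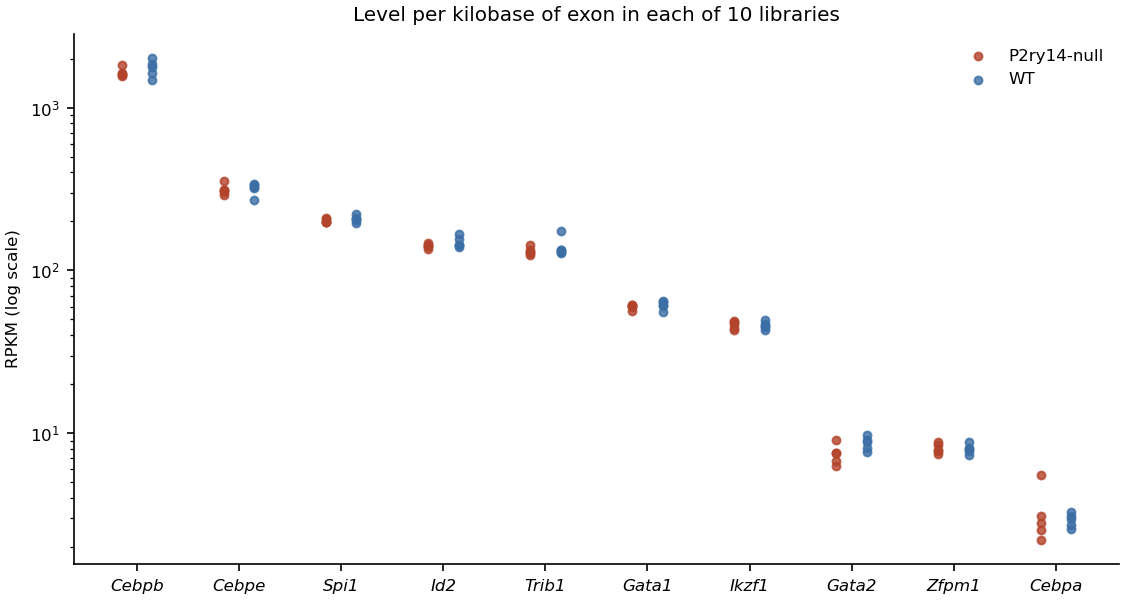
RPKM of each lineage factor in each of the 10 libraries on a log axis, ordered by level, with P2ry14-null points left of WT points. The order runs from Cebpb at 1481 RPKM or more to Cebpa at 5.52 RPKM or less, and genotypes overlap within each gene.

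Whether members varied together from library to library was examined for 6 pairs with a known relation, on log2 CPM over the 10 libraries with each genotype's mean removed and values permuted within genotype (100000 draws). Gata1 and Spi1, whose products oppose each other, had Pearson's r = 0.61 (permutation p = 0.125, adjusted over the 6 pairs 0.617) and Spearman's rho = 0.81 (permutation p = 0.0116, adjusted 0.0696). Without the 2 libraries farthest from the median of Gata1, which were library 4 of each genotype, r was 0.80. Gata1 and Gata2 had r = 0.0071 (permutation p = 0.982, adjusted 0.982) and rho = -0.0061 (permutation p = 1, adjusted 1). Gata1 and its cofactor gene Zfpm1 had r = 0.11 (permutation p = 0.764, adjusted 0.982) and rho = 0.067 (permutation p = 0.884, adjusted 1). Cebpa and Trib1 had r = -0.29 (permutation p = 0.219, adjusted 0.617) and rho = -0.61 (permutation p = 0.0558, adjusted 0.168). No pair passed 0.05 after adjustment by either measure, the other pairs, Spi1 with Cebpa and Cebpa with Cebpe, having r = -0.31 and r = -0.07 (adjusted permutation p = 0.617 and 0.982) and rho = -0.33 and rho = -0.08 (adjusted permutation p = 0.694 and 1). Without the 2 libraries farthest from the median of the gene named first, r was -0.28 for Gata1 with Gata2, 0.096 for Gata1 with Zfpm1, -0.48 for Cebpa with Trib1, -0.39 for Spi1 with Cebpa and -0.08 for Cebpa with Cebpe.

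The genes most like 3 of the members from library to library, by Pearson's r on the same scale over the 10 libraries among 8500 genes averaging at least 5 CPM, were named as a description. For Gata1 they were Izumo4 (r = 0.954), Oraov1 (0.945) and Wdr73 (0.936). For Gata2 they were Ubqln2 (0.958), Pptc7 (0.925) and Sh3kbp1 (0.893), and for Cebpe they were Rhof (0.987), Irf2bp1 (0.955) and Mob3a (0.953). These points share their libraries and depth, and the highest of 8500 values is large by selection.

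No paralog or partner of the members was called. Of 18 paralogs from the GATA, C/EBP, ETS, Ikaros, Id and Tribbles families, 15 were tested, 9 above and 6 below 0, with a median log2 difference of 0.039. That median turned to -0.041 without P2ry14-null library 2, -0.0053 without P2ry14-null library 4 and -0.021 without WT library 1. edgeR and DESeq2 each called 0, and 3 had an unadjusted edgeR p under 0.05. The smallest p belonged to Trib3, a stress-induced relative of Trib1, at 14.6 CPM in P2ry14-null and 17.2 CPM in WT libraries (log2 difference -0.23 ± 0.067, adjusted p = 0.999). Ddit3, which encodes the stress C/EBP factor CHOP, was at 17.0 CPM in P2ry14-null and 19.0 CPM in WT libraries. Ikzf3 and Ikzf2, which encode the Ikaros relatives Aiolos and Helios, stood at 356 and 132 CPM in P2ry14-null libraries, against 346 and 119 CPM in WT libraries. Gata3, the T cell and innate lymphoid GATA factor, was near 0 at 0.283 CPM in P2ry14-null and 0.230 CPM in WT libraries.

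All 24 partner proteins were tested, 16 above and 8 below 0, with a median of 0.018, and 0 were called by either tool or had an unadjusted edgeR p under 0.05. They included Runx1, at 77.4 CPM in P2ry14-null and 83.7 CPM in WT libraries, Tcf12, an E protein bound by ID2, at 38.2 CPM in P2ry14-null and 36.5 CPM in WT libraries, and Cop1, the ubiquitin ligase that TRIB1 brings to C/EBPα, at 43.5 CPM in P2ry14-null and 42.6 CPM in WT libraries. Of the GATA complex, Lmo2, Ldb1 and Lyl1 stood at 57.5, 100.2 and 139.7 CPM in P2ry14-null libraries, against 58.9, 100.4 and 140.3 CPM in WT libraries, while Tal1 was near 0 at 0.232 CPM in P2ry14-null and 0.203 CPM in WT libraries.

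Of 24 other blood lineage factors, 23 were tested, 12 above and 11 below 0, with 0 called by either tool and 1 at an unadjusted edgeR p under 0.05. That gene was Hes1, a Notch target, at 9.17 CPM in P2ry14-null and 11.2 CPM in WT libraries (log2 difference -0.28 ± 0.12, adjusted p = 0.999). Nfil3, a basic leucine zipper factor, was at 225 CPM in P2ry14-null and 247 CPM in WT libraries. The repressor genes Gfi1b and Gfi1 stood at 44.6 and 1.77 CPM in P2ry14-null libraries, against 43.5 and 1.88 CPM in WT libraries.

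The 15 eosinophil genes listed as downstream were all tested, 5 above and 10 below 0, with a median of -0.055. Whether the members act on these genes was not tested. edgeR and DESeq2 each called 0, DESeq2 with a replicate block called 1, Prg3, and 2 had an unadjusted edgeR p under 0.05, in opposite directions. Prg3, a granule major basic protein gene, was at 4.68 CPM in P2ry14-null and 6.29 CPM in WT libraries (log2 difference -0.43 ± 0.11, adjusted p = 0.952). Epx, eosinophil peroxidase, was at 28.1 CPM in P2ry14-null and 23.9 CPM in WT libraries (0.23 ± 0.073, adjusted p = 0.999). Of 7 progenitor and primary granule genes, Mpo, Elane, Prtn3 and Ctsg were too low to be tested, and Elane had 0 reads in all libraries. The other 3 were tested and 0 were called by either tool, 1 of them having an unadjusted edgeR p under 0.05. That was Cd34, at 414 CPM in P2ry14-null and 385 CPM in WT libraries (log2 difference 0.10 ± 0.041, adjusted p = 0.999), and Kit was at 10.2 CPM in P2ry14-null and 11.5 CPM in WT libraries. Cd34 narrowly did not overlap, at 403.9 to 428.5 CPM in P2ry14-null and 376.0 to 403.5 CPM in WT libraries. Such a pattern was met by 0.648% of all genes. The list's summed CPM, most of it Cd34, did not overlap either, at 467 to 490 in P2ry14-null and 442 to 464 in WT libraries.

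**Figure D5:**
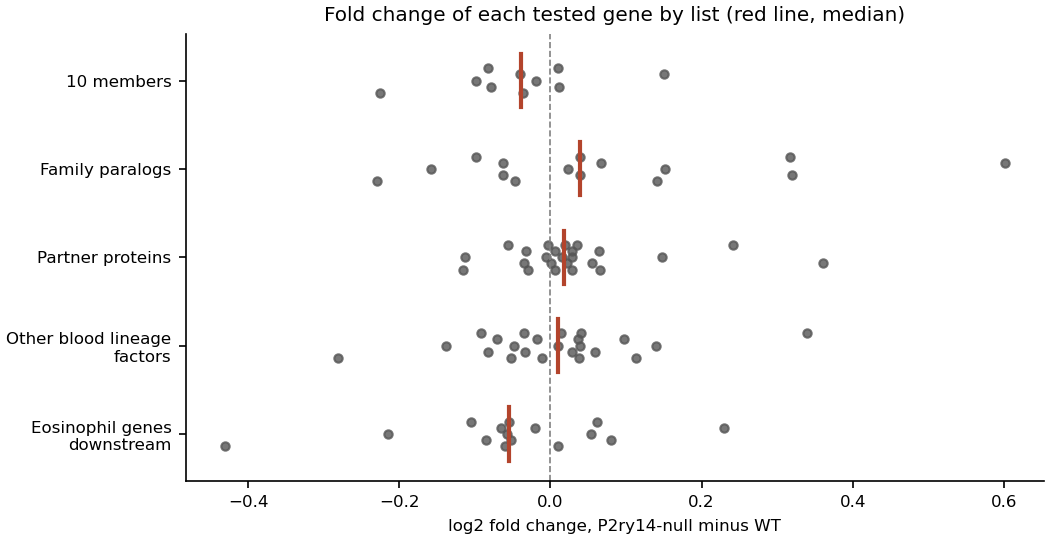
Log2 difference, P2ry14-null minus WT, of each tested gene (point) in the lineage factors and 4 related lists, with the list median as a red bar and a dashed line at 0. The medians lie between -0.055 and 0.039, and no gene shown was called by edgeR.

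Genes induced by tissue handling lay mostly below 0. Of 12 such genes, 11 lay below 0 with a median of -0.31. At an unadjusted edgeR p under 0.05 there were 6, against 4.13% of all genes. They were Egr1 and the heat shock or chaperone genes Hspa1a, Hspa1b, Dnajb1, Hspa8 and Hsp90aa1. The rest, Fos, Fosb, Jun, Junb, Dusp1 and Atf3, had log2 differences from -0.15 (Atf3) to 0.0093 (Fos). After adjustment 0 were called by edgeR and 1, Dnajb1, by DESeq2 (edgeR adjusted p = 0.400). DESeq2 with a replicate block called 2, Dnajb1 and Hspa1a. The summed CPM of that list overlapped, at 17393 to 22764 in P2ry14-null and 18695 to 22889 in WT libraries. Dusp1 and Junb made the largest parts of that sum, at 7597 and 5911 CPM in P2ry14-null and 7712 and 6104 CPM in WT libraries. Egr1 ran from 305 to 493 CPM in P2ry14-null and 542 to 1014 CPM in WT libraries. Dnajb1 ran from 40.2 to 54.8 CPM in P2ry14-null and 56.3 to 73.4 CPM in WT libraries. Egr1 and Dnajb1 did not overlap, a pattern met by 0.648% of all genes, and the rest of the list did. Of 8 neutrophil markers tested, 7 lay above 0, with a median log2 difference of 0.14, and S100a8, Ngp and Ly6g had an unadjusted edgeR p under 0.05, each with an adjusted p of 0.999. They summed to 3697 to 5397 CPM in P2ry14-null and 3701 to 4641 CPM in WT libraries, most of it Retnlg. Without Retnlg the sum was 230.5 to 293 CPM in P2ry14-null and 223 to 287 CPM in WT libraries. Most of that remainder was S100a9 and Cxcr2, at 122 and 130 CPM in P2ry14-null and 109 and 133 CPM in WT libraries. Ly6g and Ngp were low, at 1.65 and 6.35 CPM in P2ry14-null and 1.24 and 4.40 CPM in WT libraries. The levels of S100a8 were 1.97 ± 1.53 CPM in P2ry14-null and 0.981 ± 0.213 CPM in WT libraries (SD, n = 5 each). Single libraries ran from 0.951 to 4.65 CPM in P2ry14-null and from 0.754 to 1.23 CPM in WT. Erythroid markers, which share Gata1 as a driver, summed to 3.07 to 4.82 CPM in P2ry14-null and 2.58 to 4.56 CPM in WT libraries. T and NK cell markers summed to 4.89 to 11.4 CPM in P2ry14-null and 5.38 to 7.78 CPM in WT libraries, the highest value being P2ry14-null library 2. Of 7 lung structural markers, 5 lay above and 2 below 0, with a median log2 difference of 0.78, and of 0.015 without P2ry14-null library 2. Among them Sftpc, Sftpb and Kdr had an unadjusted edgeR p under 0.05, each with an adjusted p of 0.999. edgeR called 0 genes in these marker lists. The part of these in the members' values was not tested.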

How the data were processed

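The table holds raw read counts per gene that the authors deposited, whole numbers that are not normalized. Per the submitters' processing notes, STAR 2.5 and featureCounts 1.5.0-p1 of Subread were used with mm10, and DESeq2 is also named. Neither the annotation release nor the strand setting is given there. From the counts, R 4.3.3 with edgeR 4.0.16 was used with TMM factors, edgeR's low-count filter and genotype as the only term. Adjusted p-values are Benjamini-Hochberg over 15586 genes, with a threshold of 0.05. CPM use TMM-scaled library sizes, and RPKM divide them by the union of GENCODE vM21 exons. Precision is set by the spread between libraries, a common biological coefficient of variation of 12.3%. DESeq2 1.42.0, other scalings, no filter, a replicate block and leaving out each library were alternatives. No 2 libraries of a genotype agreed within sampling noise (chi-square per gene at least 22.2). The members and lists were chosen with earlier results of these data known. Genes named from a list are those past the threshold or, with none, those of smallest p, and others were named after their values were seen.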

Additional observations from a re-analysis of the deposited data

Results flagged for a closer look

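Of 52 groups of 5 libraries checked for a single library standing far from the others (the members, P2ry14 and the summed lists, by genotype), 8 stood out, and chance gives about 1 in 20. Cebpa was 14.6 CPM in P2ry14-null library 2, with the other 4 between 5.81 and 8.20 CPM. In that library macrophage markers summed to 1603 CPM (others 247 to 382), dendritic cell and class II genes to 423 CPM (others 74.4 to 119) and T and NK cell markers to 11.4 CPM (others 4.89 to 6.67). Cebpb was 2739 CPM in P2ry14-null library 3, with the others between 2371 and 2452 CPM. Gata1 was 138 CPM in P2ry14-null library 4, with the others between 146 and 149 CPM. In WT library 4, Cebpe was 337 CPM (others 398 to 421) and Trib1 was 1085 CPM (others 795 to 836).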

How the results depend on the processing

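No member passed the threshold under any of 16 alternatives each (0 of 160 values), and 149 of these kept their direction. Calls over all genes numbered 6, against 18 with DESeq2, 41 with DESeq2 and the replicate block (an alternative chosen after seeing the data) and 3 to 5 with single libraries left out. Equal replicate numbers did not deviate together (r from -0.0933 to 0.0940), and with the replicate block in edgeR there were 6 calls and Gata2 was at -0.23. Zfpm1 was -0.00016 with no low-count filter. With single libraries left out, log2 differences ran from -0.019 to 0.048 for Zfpm1, -0.13 to 0.26 for Cebpa, -0.066 to 0.0079 for Cebpe, -0.012 to 0.038 for Ikzf1 and -0.11 to 0.015 for Trib1. List medians then ran from -0.041 to 0.064 for paralogs, -0.17 to -0.039 for progenitor genes, -0.40 to 0.82 for macrophage markers, -0.38 to 0.68 for class II genes, -0.17 to -0.017 for platelet markers and 0.015 to 1.01 for lung structural markers. Gata1 with Gata2 had r = -0.0101 with DESeq2 size factors (permutation p = 0.976). With the longest transcript as length, levels were 77.6 RPKM for Gata1, 12.2 for Gata2, 272 for Spi1, 181 for Id2, 51.6 for Ikzf1 and 196 for Trib1. With exon bases inside the table's span as length (chosen after seeing the data), they were 64.2 RPKM for Gata1 and 204 for Id2. The cause of these shifts was not tested. The lowest read numbers among the members were those of Cebpa, 392 to 2245 per library.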
